A study of Mus musculus with 28 samples.

Results

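A set of 10 genes of the spleen's monocytes and red pulp macrophages were followed through RNA sequencing libraries of spleen T cell isolates from mice given rapamycin in different forms. The 4 monocyte genes were Lyz2, Csf1r, Ccr2 and Ly6c2, and the 6 red pulp genes were Spic, Vcam1, Slc40a1, C1qa, C1qb and Adgre1. They were matched by symbol to the Ensembl identifiers of the files, without the version number, and make up 10 of the 55413 genes listed. All 10 were matched, and all 10 passed the filter on low counts that kept 17182 genes.

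The study asked how a carrier and a route of delivery change what rapamycin, an inhibitor of the kinase mTOR, does to immune cells. Male C57BL/6J mice, 8 to 12 weeks old, received 1 dose a day, 11 doses over 11 days. Their spleens were passed through a filter, red blood cells were lysed, T cells were isolated with magnetic beads, and the RNA of each isolate was sequenced in bulk as 1 count table per sample. The labels call the isolates CD3+ T cells, and although the series text speaks of single cells, no table holds single cells.

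The rPS group (5 libraries) received rapamycin at 1 mg/kg inside polymersomes, hollow vesicles of the block copolymer PEG-b-PPS, injected under the skin of the neck. The R group (6 libraries) received the same rapamycin dose as free drug in 0.2% carboxymethyl cellulose by the same route. The RO group (6 libraries) received the oral product Rapamune by gavage at 1 mg/kg. The PS group (4 libraries) received empty polymersomes, matched to rPS for polymer and volume, at about 7.5 mg/ml of polymer. The NT group (7 libraries) was untreated, and the cellulose solution without drug was given to no group. Libraries carry the replicate numbers of the labels, which nothing in the labels ties to a litter, a day or a batch. The labels do not say that each library is a separate mouse, so a p-value here measures only the spread between these samples.

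Monocytes leave the bone marrow in response to chemokines that signal through CCR2, carry Ly6C on the surface in their inflammatory form, and depend on the CSF1 receptor. Red pulp macrophages are resident cells of the spleen that engulf aged red blood cells and return their iron to the blood, and in mice the transcription factor Spi-C is needed for them to form. Neither cell type expresses CD3, and a T cell isolation is designed to remove both. Some T cells express Ly6c2, and which cells the transcripts of the members came from was not tested. In bulk RNA, fewer cells of a type and less RNA per cell cannot be told apart.

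Library totals ran between 4286897 and 15696546 rounded counts, so that 3 counts, taken as the detection floor, are worth 0.191 to 0.700 CPM, the count of a gene per 1000000 counts of its library. In 6 libraries, R replicate 3, RO replicate 3 and NT replicates 3, 4, 7 and 8, the T cell receptor subunit gene Cd3e was at 9.58 to 46.9 CPM, and the 21 other complete libraries held 75.95 to 471 CPM of it. These 6 are called the T-cell-poor libraries below. The nearest library above the limit of 50 CPM was NT replicate 5 at 75.95 CPM, and the nearest below it was RO replicate 3 at 46.9 CPM. The summed level of 18 T cell genes, none of them at 0 in any complete library, was 236 to 869 CPM in the T-cell-poor libraries and 1463 to 6622 CPM in the others. The file of RO replicate 7 listed 0 for every gene of 8 whole chromosomes. Csf1r, Ly6c2 and Adgre1 lie on those chromosomes, so the zeros of RO replicate 7 are left out of their levels. The fits of all 28 libraries count these zeros, and fits without RO replicate 7 are given only where named. All 7 NT files also listed Malat1 and mt-Rnr2 at 0, while the other complete libraries had at least 78528 counts of Malat1. A difference in how the NT files were made therefore cannot be told apart from the lack of treatment. Removal of RO replicate 7 and the 6 T-cell-poor libraries is called the 21-library fit, and it leaves 3 NT libraries.

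The start regions of 4 members are shown first, Lyz2 and Ly6c2 because these monocyte genes followed different patterns across the libraries, and Spic and C1qb because these red pulp genes followed a similar one. The sequences are RefSeq windows of GRCm38.p6 from 250 bases before to 50 bases after the start. Windows of 5 of the 10 members were searched. The capitals mark GAGGAA, a core bound by the myeloid factor PU.1, searched on both strands. The windows are Lyz2 at chr10:117282223-117282522 on the minus strand, Ly6c2 at chr15:75111922-75112221 on the minus strand, Spic at chr10:88682974-88683273 on the minus strand and C1qb at chr4:136886151-136886450 on the minus strand.
Lyz2: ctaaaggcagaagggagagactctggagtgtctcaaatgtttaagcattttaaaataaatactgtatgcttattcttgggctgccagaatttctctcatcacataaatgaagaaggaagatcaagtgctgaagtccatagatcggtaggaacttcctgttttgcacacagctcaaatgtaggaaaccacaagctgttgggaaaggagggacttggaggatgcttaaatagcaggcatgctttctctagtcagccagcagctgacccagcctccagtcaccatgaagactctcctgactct
Ly6c2: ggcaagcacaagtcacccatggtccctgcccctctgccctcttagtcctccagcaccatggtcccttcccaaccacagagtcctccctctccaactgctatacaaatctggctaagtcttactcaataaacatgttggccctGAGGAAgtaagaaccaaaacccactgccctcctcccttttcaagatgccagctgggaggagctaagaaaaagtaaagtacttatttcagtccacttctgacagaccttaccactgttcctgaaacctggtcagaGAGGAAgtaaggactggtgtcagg
Spic: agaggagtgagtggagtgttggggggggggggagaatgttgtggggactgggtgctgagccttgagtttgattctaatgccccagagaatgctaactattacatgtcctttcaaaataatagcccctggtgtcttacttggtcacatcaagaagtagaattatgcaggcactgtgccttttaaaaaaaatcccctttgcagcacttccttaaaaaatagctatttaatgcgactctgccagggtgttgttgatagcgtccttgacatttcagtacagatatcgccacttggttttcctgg
C1qb: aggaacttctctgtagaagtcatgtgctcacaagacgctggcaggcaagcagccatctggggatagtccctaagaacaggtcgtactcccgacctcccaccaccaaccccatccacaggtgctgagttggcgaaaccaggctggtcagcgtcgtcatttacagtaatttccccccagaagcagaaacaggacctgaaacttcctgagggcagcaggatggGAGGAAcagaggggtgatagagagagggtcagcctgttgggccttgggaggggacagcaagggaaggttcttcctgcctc

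The Ly6c2 window held GAGGAA at 2 places, whose first bases lie at -108 and 27 from the start, and both run on to GAGGAAGT. RefSeq gives Ly6c2 another start, with a window at chr15:75111888-75112187, and from that start the same matches lie at -142 and -8. The C1qb window held 1 match, at -30, which does not run on. The Lyz2, Spic and Ccr2 windows held none. Of 32851 mouse promoter windows of the same length, 28.3% held GAGGAA and 3.2% held the 8-base form, which contains the shorter one. The C/EBP motif TTGCNNAA, present in 10.8% of windows, was in none of the windows of the 5 members searched. Csf1r was left out of this search, so nothing is said of its motifs. No window was available for Vcam1, Slc40a1, C1qa and Adgre1.

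Lyz2 (ENSMUSG00000069516), which encodes the lysozyme of macrophages and other myeloid cells, was lower in rPS than in NT. It measured 305, 312, 213, 18.9 and 246 CPM in rPS replicates 1, 2, 4, 5 and 7. It ran between 141 and 3721 CPM in NT, with a median of 1865 CPM. The 4 T-cell-poor NT libraries had 1865 to 3721 CPM and the other 3 had 141, 309.9 and 694 CPM, so the rPS libraries overlap only with the NT libraries that kept their T cells. PS libraries had 158, 134, 143 and 225 CPM. R libraries ran between 236 and 2827 CPM (median 407) and RO libraries between 180.0 and 3195 CPM (median 243), and in both groups the highest library is the T-cell-poor one. By group median, the order was PS, RO, rPS, R and NT, and the ranges of neighbours in that order overlap throughout.

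Ccr2 (ENSMUSG00000049103), the chemokine receptor that brings monocytes out of the marrow, followed Lyz2. It measured 78.6, 59.8, 14.9, 23.9 and 34.3 CPM in rPS, against a range of 41.9 to 787 CPM and a median of 382 CPM in NT. PS libraries had 32.2, 42.5, 27.6 and 28.9 CPM. All 4 PS libraries lay within the range of rPS, and 3 of them lay below every NT library. R libraries ran between 40.1 and 684 CPM (median 55.2) and RO libraries between 27.8 and 373 CPM (median 46.9).

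Csf1r (ENSMUSG00000024621), the receptor for CSF1 and IL-34 on monocytes and macrophages, measured 699.5, 609, 287, 53.9 and 349 CPM in rPS, against 206 to 1769 CPM with a median of 1015 CPM in NT. PS libraries had 319, 219, 213 and 361 CPM. R libraries ran between 325 and 1476 CPM (median 463.5) and the 5 complete RO libraries between 162 and 1905 CPM. The 2 highest rPS libraries, replicates 1 and 2, lay above every NT library that was not T-cell-poor.

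Ly6c2 (ENSMUSG00000022584), which encodes the Ly6C antigen of inflammatory monocytes and, in mice, is also expressed by some T cells, had a pattern of its own. It measured 49.0, 46.2, 23.1, 47.4 and 28.3 CPM in rPS replicates 1, 2, 4, 5 and 7. PS libraries had 57.8, 55.5, 71.1 and 59.8 CPM, and complete RO libraries had 62.9, 95.7, 80.8, 59.4 and 66.3 CPM. Every rPS library therefore lay below every PS library and below every complete RO library. Across all genes tested, 2.57% were lower without overlap in rPS against PS, and 0.989% in rPS against RO. R libraries ran between 47.6 and 78.8 CPM (median 61.9) and overlapped rPS through replicate 6. NT libraries ran between 37.5 and 196 CPM (median 120.2), and NT replicate 5, at 37.5 CPM, was the only NT library within the rPS range. The T-cell-poor library R replicate 3 had 62.9 CPM, in the middle of its group, where its Lyz2 was the highest of the group.

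**Figure D1:**
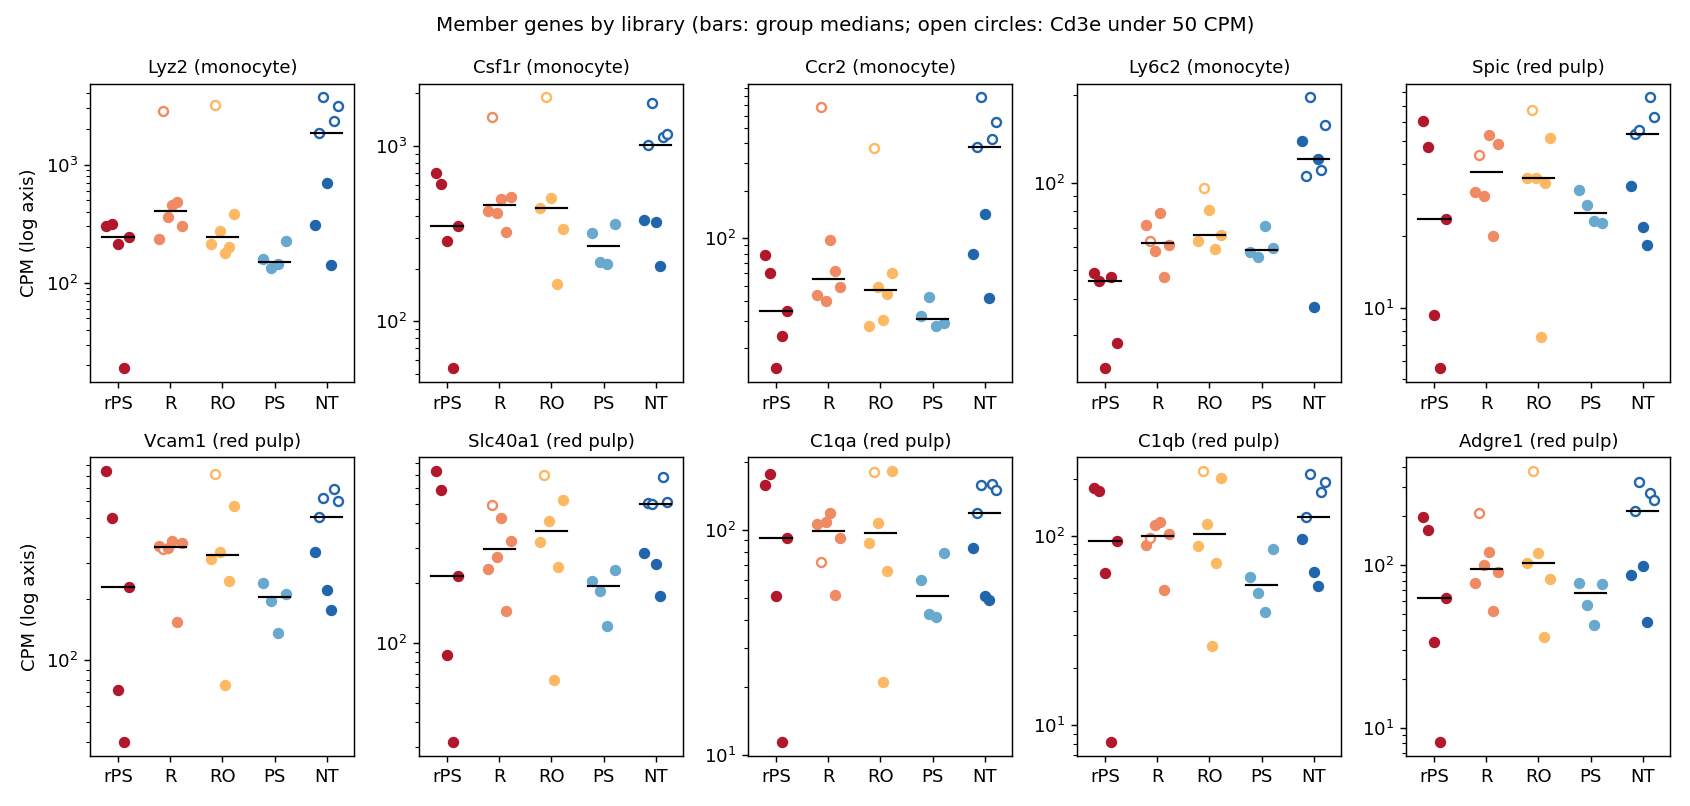
CPM of each member (log axis) in every library of rPS, R, RO, PS and NT, with bars at the group medians and open circles for the 6 T-cell-poor libraries; the zeros of RO replicate 7 for Csf1r, Ly6c2 and Adgre1 are not drawn. The open circles hold the highest Lyz2 values, 1865 to 3721 CPM, while the Ly6c2 values of rPS, 23.1 to 49.0 CPM, lie below all values of PS and RO.

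On a log scale the red pulp genes spread most widely within rPS, where the same libraries were high and low for each of them. In CPM, the SD was larger in RO than in rPS for C1qb (75.6 against 72.65) and Adgre1 (134.1 against 82.24). For Adgre1 the SD was also larger in NT (107.4) than in rPS. Spic (ENSMUSG00000004359), the factor that sets up red pulp macrophages in mice, measured 60.8, 47.2, 9.33, 5.57 and 23.6 CPM in rPS, against 18.2 to 76.1 CPM with a median of 53.3 CPM in NT. PS libraries had 31, 26.8, 23.1 and 22.6 CPM, so the PS values lie inside the spread of rPS. R ran between 20.01 and 52.95 CPM (median 37.1) and RO between 7.54 and 67 CPM (median 34.9). By group median, the order was rPS, PS, RO, R and NT, and all neighbours overlap.

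Vcam1 (ENSMUSG00000027962), the adhesion molecule that binds the integrin VLA-4, measured 845, 498, 71.2, 39.7 and 228 CPM in rPS, against 176 to 688 CPM with a median of 503 CPM in NT. Slc40a1 (ENSMUSG00000025993), which encodes ferroportin, the exporter that returns recycled iron to the blood, measured 733, 587, 87.7, 31.8 and 217 CPM in rPS, against 172 to 681 CPM with a median of 501 CPM in NT. For both genes the highest rPS library exceeded every NT library and the lowest lay under every NT library. PS libraries held 135 to 239 CPM of Vcam1 and 122 to 232 CPM of Slc40a1. R libraries held 154 to 384 CPM of Vcam1 and 146 to 495 CPM of Slc40a1, and RO libraries held 75.6 to 819 CPM of Vcam1 and 65.1 to 697 CPM of Slc40a1.

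C1qa (ENSMUSG00000036887) and C1qb (ENSMUSG00000036905) encode chains of complement C1q, made by tissue macrophages. C1qa measured 158, 177, 51.1, 11.4 and 92.0 CPM in rPS and 59.7, 42.4, 41.2 and 79.4 CPM in PS, against 48.8 to 160.3 CPM with a median of 119 CPM in NT. C1qb measured 179, 172, 63.5, 8.16 and 94.0 CPM in rPS and 60.5, 50, 39.4 and 84.6 CPM in PS, against 54.0 to 210.4 CPM with a median of 125 CPM in NT. Adgre1 (ENSMUSG00000004730), the gene of the macrophage marker F4/80, measured 195, 163, 33.4, 8.16 and 62.2 CPM in rPS and 76.8, 56.7, 42.8 and 76.5 CPM in PS, against 44.7 to 324 CPM with a median of 213 CPM in NT. In all 3 genes rPS replicate 5 was lower than every other complete library of the study, and replicates 1 and 2 were above all PS libraries. In R, C1qa ran between 51.2 and 119 CPM, C1qb between 51.6 and 117 CPM and Adgre1 between 51.9 and 208 CPM. In RO, C1qa ran between 21.1 and 183 CPM, C1qb between 26.2 and 219 CPM and, in complete libraries, Adgre1 between 36.1 and 376 CPM.

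Set against NT, rPS had lower values of all 10 members, and 2 of them, Lyz2 and Ccr2, passed the test of edgeR's quasi-likelihood fit at a Benjamini-Hochberg adjusted p under 0.05. Across all genes tested in this comparison, 11.8% were called, 6.01% lower and 5.74% higher. Lyz2 fell by 3.10 on the log2 scale (SE 0.99, adjusted p = 0.0415), and Ccr2 fell by 3.14 (SE 0.94, adjusted p = 0.0313). Csf1r had a log2 fold change of -1.22 (SE 0.92, adjusted p = 0.412), and without RO replicate 7 its SE was 0.64 and its adjusted p 0.162. Ly6c2 had a log2 fold change of -1.76 (SE 0.64, adjusted p = 0.0683). Without RO replicate 7 the estimate for Ly6c2 was also -1.76, its SE was 0.30 and its adjusted p was 0.000703, beside 10.9% of genes called lower in that fit.

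None of the 6 red pulp genes was called in rPS against NT, by edgeR at an adjusted p under 0.05. Their log2 fold changes lay between -1.10 for Adgre1 and -0.26 for C1qa. The median log2 fold change was -2.43 over the 4 monocyte genes and -0.48 over the 6 red pulp genes, beside -0.01 over all genes tested. Both medians are descriptions of lists chosen with earlier results known.

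The T-cell-poor libraries touch these values directly, since 4 of the 7 NT libraries and none of the 5 rPS libraries are T-cell-poor. In the 21-library fit, Lyz2 had a log2 fold change of -0.74 in rPS against NT (SE 0.52, adjusted p = 0.421) and Ccr2 of -1.01 (SE 0.40, adjusted p = 0.151), and neither was called. Ly6c2 fell by 1.38 (SE 0.31, adjusted p = 0.0238) and was the 1 member called, beside 3.19% of genes called and 2.3% called lower. The 6 red pulp genes had values between 0.27 and 0.67, the reverse of their direction with all libraries, and none was called. The median was -0.88 over the monocyte genes and 0.46 over the red pulp genes, beside 0.00 over all genes. With the mean log2 level of the T cell genes as a covariate, the log2 fold changes were -0.96 for Lyz2 (adjusted p = 0.237), -1.09 for Ccr2 (adjusted p = 0.137) and -1.62 for Ly6c2 (adjusted p = 0.137). Lyz2 lost its call when any single rPS library or any single T-cell-poor NT library was left out, with adjusted p up to 0.0946. Ccr2 lost its call without rPS replicate 4, 5 or 7, or NT replicate 4, 7 or 8, with adjusted p up to 0.0794. Ly6c2 passed the test when NT replicate 5, its lowest NT library, was left out, with a log2 fold change of -1.94.

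**Figure D2:**
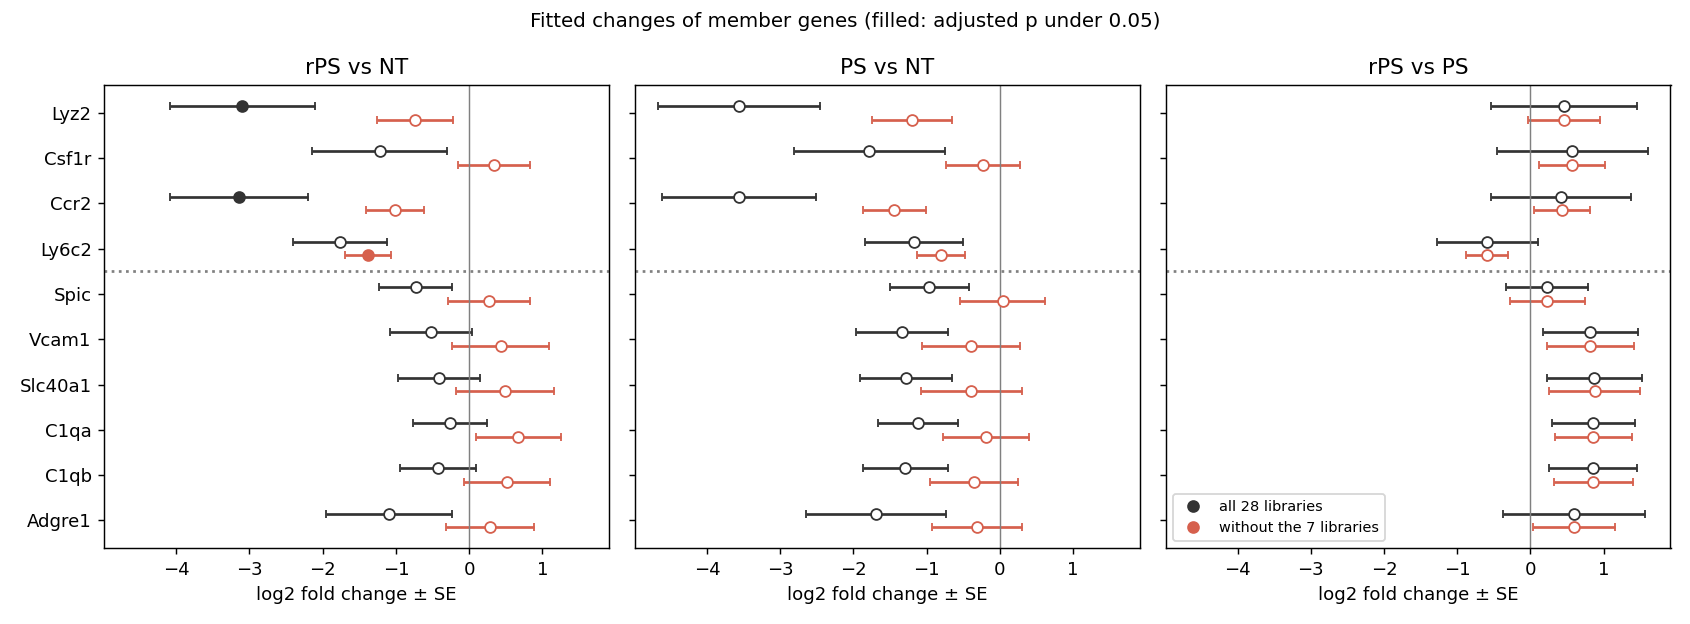
Log2 fold changes of the 10 members with standard errors from edgeR for rPS vs NT, PS vs NT and rPS vs PS, with all 28 libraries (black) and in the 21-library fit (red); filled points have an adjusted p under 0.05. In rPS vs NT, Lyz2 stands at -3.10 with all libraries and at -0.74 in the 21-library fit, while Ly6c2 stands at -1.76 and -1.38.

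The empty carrier was set against the same NT libraries, so its estimates share them with those of rPS. In PS against NT, Lyz2 had a log2 fold change of -3.56 (SE 1.11, adjusted p = 0.083), Ccr2 of -3.56 (SE 1.05, adjusted p = 0.0778) and Ly6c2 of -1.17 (SE 0.67, adjusted p = 0.296). By edgeR none of the 10 members was called and DESeq2 called 2, beside 0.0291% of genes called by edgeR and 11.7% by DESeq2. An unadjusted p under 0.05 by edgeR was reached by 4 members and by 4057 of 17182 genes. The 6 red pulp genes lay between -1.69 and -0.96, with a median of -1.29 beside -2.67 for the monocyte genes and -0.02 over all genes. Leaving out RO replicate 7, whose zeros enter the common estimate of the spread, gave 2 called members, Ccr2 (log2 fold change -3.57) and Ly6c2 (-1.17, SE 0.31, adjusted p = 0.0429), beside 4.97% of genes. In that edgeR fit 7 members had an unadjusted p under 0.05, as did 5432 of 17132 genes. Csf1r stood there at -1.79 (SE 0.71, adjusted p = 0.0964) and Adgre1 at -1.69 (SE 0.71, adjusted p = 0.109). In the 21-library fit Lyz2 stood at -1.20 (adjusted p = 0.319), Ccr2 at -1.44 (adjusted p = 0.181), Ly6c2 at -0.80 (adjusted p = 0.276) and the red pulp genes between -0.39 and 0.04, with no member called, beside 0.0118% of genes.

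The drug within the carrier is addressed by rPS against PS, where neither group holds a T-cell-poor library. By edgeR none of the 10 members was called, none had an unadjusted p under 0.05, and DESeq2 called none, beside 0.0233% of genes called by edgeR. The 6 red pulp genes had log2 fold changes between 0.22 for Spic and 0.87 for Slc40a1. Lyz2 stood at 0.46 (SE 1.00), Ccr2 at 0.42 (SE 0.96) and Csf1r at 0.57 (SE 1.03). Ly6c2, at -0.59 (SE 0.69, adjusted p = 1), was the only member with a negative estimate. Without RO replicate 7 the SE of Ly6c2 was 0.32, its unadjusted p was 0.0799 and its adjusted p was 1. The standard errors allow changes of more than 1 log2 unit either way for Lyz2, so a difference of that size was not detectable with these samples.

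No member passed the test for free rapamycin. In R against NT, log2 fold changes were -1.17 for Lyz2 (SE 0.84, adjusted p = 0.703), -1.07 for Ccr2 (SE 0.80, adjusted p = 0.714) and -1.02 for Ly6c2 (SE 0.58, adjusted p = 0.588), and the red pulp genes lay between -0.80 and -0.32. By edgeR no member was called, none had an unadjusted p under 0.05 and DESeq2 called none, beside 0.291% of genes. In the 21-library fit Lyz2 stood at 0.00 and Ccr2 at -0.55, and Ly6c2 at -0.67 (adjusted p = 0.541). The 6 red pulp genes lay between 0.22 and 0.65 in that fit, with a median of 0.41, the reverse of their direction with all libraries. Without R replicate 3, the T-cell-poor library of its group, Lyz2 stood at -2.35 and Ccr2 at -2.67, and neither was called. Without RO replicate 7, Ly6c2 kept its estimate of -1.02 with an SE of 0.27 and an adjusted p of 0.075.

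No member passed the test for oral rapamycin. In RO against NT, Ccr2 had a log2 fold change of -1.88 (SE 0.82, adjusted p = 0.4), Lyz2 of -1.27 (SE 0.85, adjusted p = 0.602) and the red pulp genes lay between -0.65 and -0.23. The value of -0.65 belongs to Adgre1, whose fit counts the zero of RO replicate 7. Without that library Adgre1 stood at -0.38. By edgeR no member was called, beside 0.0116% of genes, and DESeq2 called none. An unadjusted p under 0.05 by edgeR was reached by 1 member and by 1892 of 17182 genes. Without RO replicate 3, the T-cell-poor library of its group, Lyz2 stood at -3.10 (adjusted p = 0.0549) and Ccr2 at -3.31 (adjusted p = 0.0526). Lyz2 stood at -0.80 in the 21-library fit (adjusted p = 0.72) and Ccr2 at -1.20 (adjusted p = 0.441), and the red pulp genes lay between -0.06 and 0.16, with 5 of the 6 above 0. Ly6c2 without RO replicate 7 had a log2 fold change of -0.83 (SE 0.29, adjusted p = 0.25).

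The 3 rapamycin forms were compared with each other at 1 mg/kg. In rPS against R, Ccr2 had a log2 fold change of -2.07 (SE 0.90, adjusted p = 0.577), Lyz2 of -1.93 (SE 0.95, adjusted p = 0.622) and Ly6c2 of -0.74 (SE 0.63, adjusted p = 0.809), and the red pulp genes lay between -0.41 and 0.07. Without R replicate 3 alone Ccr2 stood at -0.48 and Lyz2 at -0.75, and in the 21-library fit the 4 monocyte genes lay between -0.75 and -0.14. By edgeR no member was called in rPS against R, where 0% of all genes were called, and DESeq2 called none. There 1 member and 1380 of 17182 genes had an unadjusted p under 0.05 by edgeR. In rPS against RO, Ccr2 stood at -1.26 (SE 0.88, adjusted p = 0.882) and Lyz2 at -1.83 (SE 0.94, adjusted p = 0.764). In the 21-library fit these were 0.19 for Ccr2 and 0.05 for Lyz2, with signs reversed, and leaving out RO replicate 3 alone gave 0.16 for Ccr2 and -0.01 for Lyz2. The red pulp genes lay between -0.45 and -0.03 in rPS against RO, and in the 21-library fit between 0.12 and 0.51, with every sign reversed. The value of -0.45 belongs to Adgre1, which stood at -0.72 without RO replicate 7. Ly6c2 in rPS against RO without RO replicate 7 had a log2 fold change of -0.93 (SE 0.31, adjusted p = 0.396). By edgeR no member was called in rPS against RO, none had an unadjusted p under 0.05 and DESeq2 called none, beside 0.0233% of genes.

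In R against RO, edgeR called no member, none had an unadjusted p under 0.05 and DESeq2 called none, beside 0% of genes, and the 10 log2 fold changes lay between -0.19 and 0.81. Without RO replicate 7 Adgre1 stood outside that range, at -0.43. Leaving out single libraries moved Ccr2 between -0.79 and 2.23 in R against RO, and Lyz2 between -1.09 and 1.93. The contrast of rPS against PS with R against NT, which asks whether the drug changed a member by another amount inside the carrier than as free drug, called no member by edgeR. In that contrast none had an unadjusted p under 0.05 and DESeq2 called none, beside 0.0175% of genes, and the 10 values lay between 0.43 and 1.63.

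Within single libraries, the 2 sets were not locked together. The mean log2(CPM + 1) of the 6 red pulp genes was subtracted from that of the 4 monocyte genes, a difference that is read only between libraries because the genes differ in length. In rPS replicates 1, 2, 4, 5 and 7 this difference was -0.52, -0.41, 0.65, 1.23 and 0.05. In PS it was 0.18, 0.38, 0.68 and 0.26, and in NT it ran between 0.73 and 2.06 with a median of 1.22. The 3 NT libraries that were not T-cell-poor had 0.73, 1.16 and 0.78, so each of them lay above all 4 PS libraries and above 4 of the 5 rPS libraries. R ran between 0.15 and 2.12 (median 0.32) and RO between -0.06 and 1.46 (median 0.31). The lowest values of the study, in rPS replicates 1 and 2, belong to libraries with Vcam1 at 845 and 498 CPM and Lyz2 at 305 and 312 CPM. The order of NT above PS and rPS depended on the score. As a difference of medians, PS replicate 4, at 1.25, exceeded NT replicate 2, at 1.18. With Lyz2 and Ly6c2 left out of the means, rPS replicate 4, at 0.61, exceeded NT replicates 2 and 6, at 0.60 and 0.54.

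**Figure D3:**
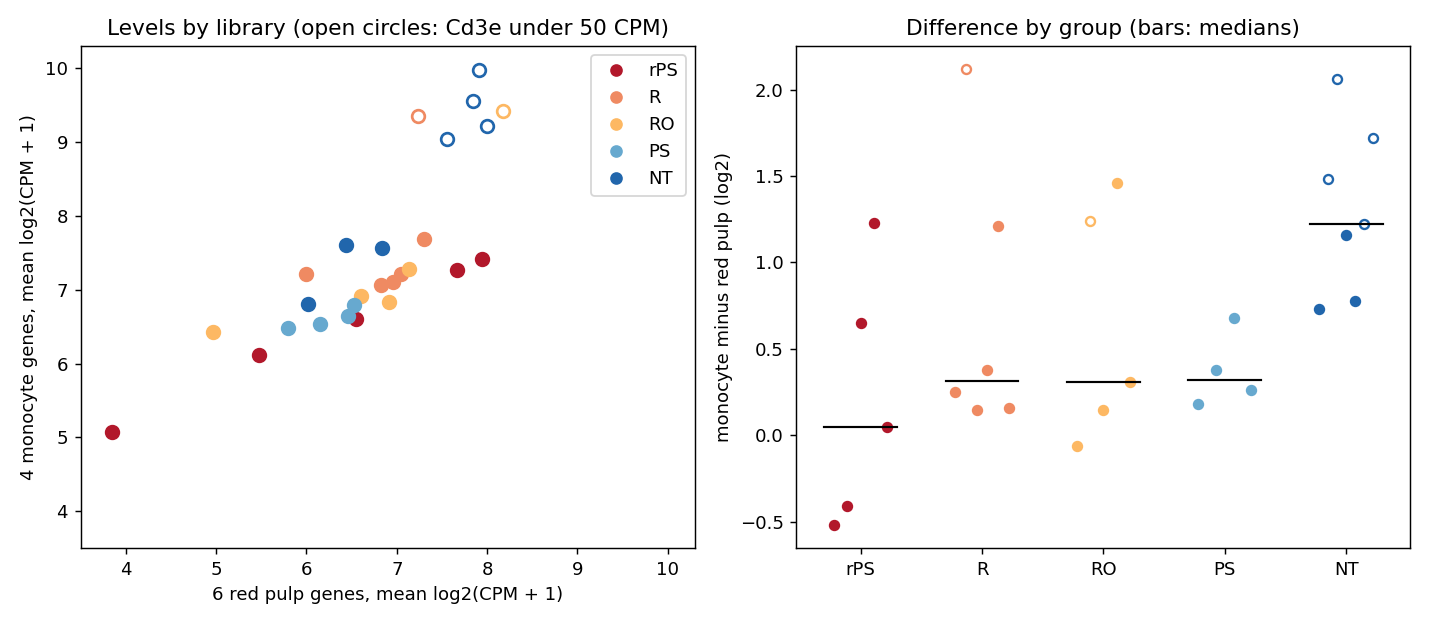
Left, mean log2(CPM + 1) of the 4 monocyte genes against that of the 6 red pulp genes in 27 complete libraries; right, their difference by group, with bars at the medians and open circles for the T-cell-poor libraries. The median difference is 0.05 in rPS and 1.22 in NT, and rPS reaches both the lowest red pulp mean, 3.85, and one of the highest, 7.94.

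The monocyte genes also differed in how they followed the loss of T cell transcripts. The median of the 6 T-cell-poor libraries exceeded that of the 21 others 12.7-fold for Lyz2 (2988 against 236 CPM), 11.5-fold for Ccr2 (487.5 against 42.5 CPM) and 3.66-fold for Csf1r (1323 against 361 CPM). For the red pulp genes the ratio was 3.38-fold for Adgre1 and between 1.95-fold and 2.57-fold for the other 5. Ly6c2 had the smallest ratio of the 10 members, 1.81-fold (108 against 59.4 CPM). Lyz2, Ccr2, Csf1r and Adgre1 lay higher in all 6 T-cell-poor libraries than in all 21 others, where 6.96% of all genes did so. The 2 sets of libraries were defined from Cd3e and are not groups of the study, so no test is given.

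**Figure D4:**
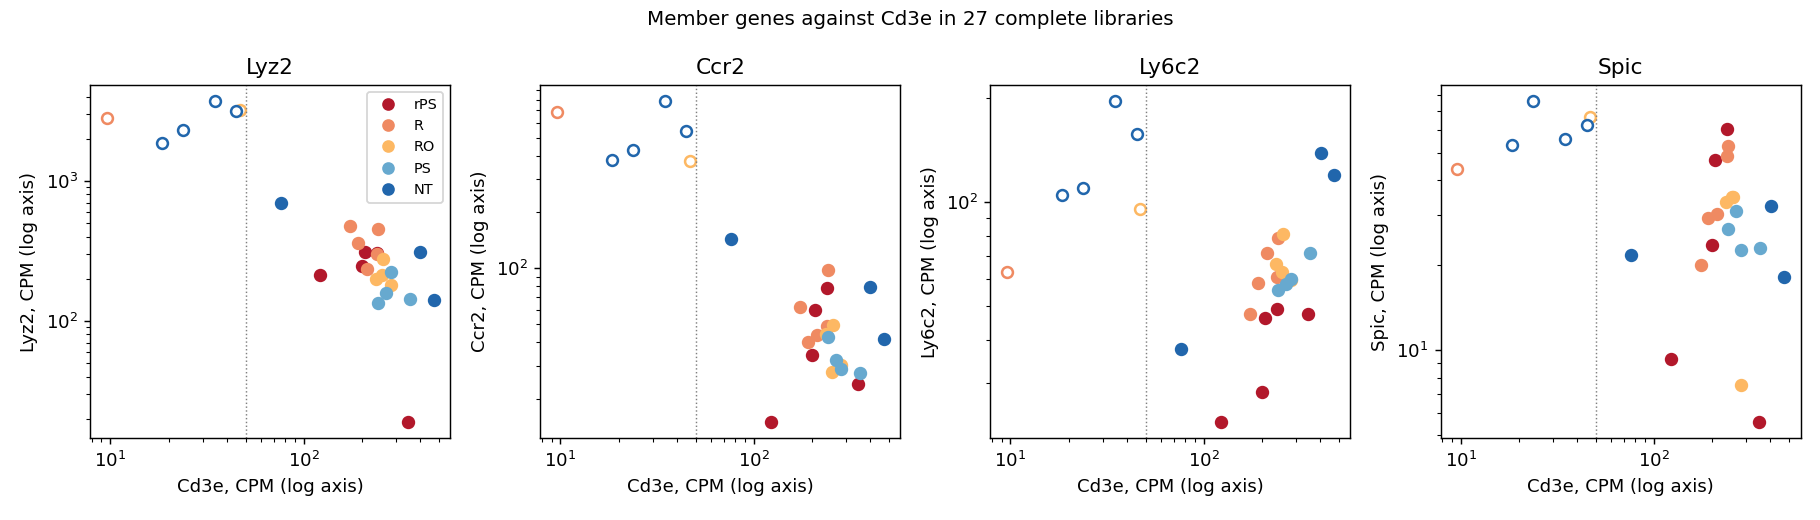
CPM of Lyz2, Ccr2, Ly6c2 and Spic against CPM of Cd3e (log axes) in 27 complete libraries coloured by group, with a dotted line at 50 CPM of Cd3e and open circles for the T-cell-poor libraries. Lyz2 lies at 1865 CPM or more left of the line and at 694 CPM or less right of it, while the Ly6c2 values on both sides overlap.

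Neutrophil genes were high in the same libraries, while B cell genes followed no single order. The summed level of 12 neutrophil genes was 16.1 to 80.0 CPM in rPS and 33.96 to 3542 CPM in NT, with at most 1 of them at 0 in a library of either group. In all T-cell-poor libraries together it was 538 to 3542 CPM, against 16.1 to 366 CPM in the others. The summed level of 12 B cell genes, with none at 0, was up to 15980 CPM in the T-cell-poor NT libraries, each above the 4321 to 9622 CPM of the other NT libraries. In R replicate 3 it was 3559 CPM, below the 6146 to 7628 CPM of the other R libraries, and in RO replicate 3 it lay within the range of the other complete RO libraries, 5210 to 8913 CPM. In rPS against NT, all 12 neutrophil genes were called lower with all libraries, with a median log2 fold change of -4.54. In the 21-library fit all 10 still tested had negative estimates, with a median of -1.06, and 1 was called. The part of these cells in the values of Lyz2, which neutrophils also express, was not tested.

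Other genes of the same cells were read from lists chosen with earlier results known. Of 20 further monocyte genes, 6 were called lower in rPS against NT, none was called higher, and the median log2 fold change was -2.24. Those with the smallest p were the chemokine receptor gene Ccr1 at -3.52 (SE 1.01, adjusted p = 0.026), Plac8 at -1.93 (SE 0.57, adjusted p = 0.0304), the endotoxin receptor gene Tlr4 at -1.62 (SE 0.48, adjusted p = 0.0307) and F13a1, a coagulation factor subunit, at -3.86 (SE 1.25, adjusted p = 0.0445). Of 23 further tissue macrophage genes tested, 1 was called lower, the lysosomal glycoprotein gene Cd68 at -1.86 (SE 0.56, adjusted p = 0.0326), and their median was -0.45. In the 21-library fit, 1 of the 20 monocyte genes, Ms4a6c, was called lower (log2 fold change -0.72, SE 0.20, adjusted p = 0.0484). None of the 23 macrophage genes was called there, and the medians were -0.43 for the monocyte and 0.34 for the macrophage genes.

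None of 13 genes that handle iron and heme was called in rPS against NT by edgeR, and 6 had an unadjusted p under 0.05. None of 5 tested genes of the CSF1 and CCR2 pathway was called (2 had such a p). Of 4 integrin and adhesion genes around VLA-4 none was called (1 had such a p). Across all 17182 genes, 5012 had an unadjusted p under 0.05 in this comparison. Among lists of other cells, 6 of 8 NK cell genes were called lower with all libraries and 6 of 8 in the 21-library fit. Ncr1, an activating receptor gene of NK cells, stood at -2.37 (SE 0.39, adjusted p = 0.000902) with all libraries and at -1.84 (SE 0.36, adjusted p = 0.0124) in the 21-library fit. Of 18 T cell genes none was called with all libraries, with a median log2 fold change of 0.49. In the 21-library fit none was called either, but the median was -0.49 and 14 of the 18 had negative estimates. In rPS against PS no gene of any of these lists was called, and none was in PS against NT, where edgeR called 0.0291% of all genes. In PS against NT an unadjusted p under 0.05 was nonetheless reached by all 12 neutrophil genes (median log2 fold change -5.05). So did 16 of the 20 further monocyte genes (median -2.68) and 11 of the 23 macrophage genes (median -1.20). Of the 18 T cell genes 1 did, and of all 17182 genes 4057.

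The likeness of other genes to Lyz2 and to Spic was read across libraries. Over 27 complete libraries the 6 genes whose CPM ranked most like Lyz2 were Sirpb1c (Spearman rho 0.974), C3, Mmp8, Tgfbi, Chil3 and Gcnt2 (rho 0.951). Ccr2 reached 0.869, Csf1r 0.853 and Ly6c2 0.361 with Lyz2. The 6 genes most like Spic were Mertk, the receptor by which macrophages take up dying cells (rho 0.971), Epb41l3, Igf1, Kcnj10, Sema6d and Clec1b (rho 0.952). Vcam1 ranked at place 8 with rho 0.947, Slc40a1 at place 12 with 0.939 and Adgre1 at place 22 with 0.925, while Lyz2 reached 0.675 with Spic. Csf1r ranked closer to Spic (rho 0.905, place 54) than to Lyz2, and so did Ly6c2, at 0.541 with Spic. C1qb reached 0.893 and C1qa 0.870 with Spic. In the 21 libraries left without the 7, Lyz2 and Ly6c2 had rho -0.110, Csf1r had 0.856 with Spic and 0.691 with Lyz2, and Spic kept rho 0.970 with Mertk and 0.917 with Vcam1. These values describe libraries that share their depth and their mix of cells.

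Shared sequence limits what the counts can tell for 2 members. Of the 50-base windows in the transcripts of Lyz2, 15.4% also occur in other genes, all of them in Lyz1, and of those of Ly6c2, 14.4% do, 13.9% in Ly6c1. Lyz1 stayed low, at 0.1295 to 6.29 CPM over all libraries. Ly6c1 measured a mean of 11.2 CPM in rPS and 18.4 CPM in PS. The remaining 8 members shared at most 3.01% of their windows with other genes.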

How the data were processed

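Spleen T cell isolates of 28 samples were sequenced, with 1 table per sample. The deposited values are expected counts per gene: between 21.3% and 25.0% of the values above 0 are not whole, depending on the library. The submitters' processing notes name Trimmomatic 0.39, STAR 2.7.5a, Cufflinks 2.1.1 and Cuffdiff, and the build GRCm39. Which of these wrote the count tables, with what strand option and annotation release, is not stated in the sources used. Unstranded counting would mix genes with their antisense partners.

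Counts were rounded to whole numbers, and CPM is the rounded count per 1000000 of the library total. Symbols came from the GENCODE M21 table (GRCm38), which matched 52082 of 55413 identifiers (94.0%), and 1 of 174 listed symbols was unmatched. Genes were filtered with filterByExpr, scaled with TMM and tested in 1 fit of all 28 libraries with edgeR 4.0.16 (robust quasi-likelihood test, two-sided) in R 4.3.3, with Benjamini-Hochberg adjustment over 17182 genes, called at an adjusted p under 0.05. The fit was tested on simulated data. Alternatives were DESeq2 1.42.0, other scaling, no filter, the compared groups alone, the replicate number as a block, T cell genes as a covariate (15 with counts in every library), immunoglobulin, haemoglobin and mitochondrial genes left out, and libraries left out.

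The members, lists and rules were chosen with earlier results of these data known. Every member is named. From each list up to 4 called genes with the smallest p could be named, and for likeness the 6 genes with the highest Spearman rho. Leaving out RO replicate 7 in every comparison, and taking the group medians without the T-cell-poor libraries, were chosen after seeing the data. The floor of 3 counts covers counting error only. The libraries differed within groups beyond sampling noise, with a chi-square per gene of at least 3.3 in 67 pairs, so each counts as 1 replicate.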

Additional observations from a re-analysis of the deposited data

Results flagged for a closer look

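Each member was checked within each group for a library whose gap to its nearest neighbour was large against the range of the group, by Dixon's criterion at the 95% level, and 8 of 50 sets met it. Chance alone meets it in about 1 in 20 sets, and the members are not independent of each other. In R, replicate 3 stood far above the others with 2827 CPM of Lyz2 (nearest 479.5), 1476 CPM of Csf1r (nearest 512) and 683.7 CPM of Ccr2 (nearest 97.1). In RO, replicate 3 stood above the others with 3195 CPM of Lyz2 (nearest 382), 1905 CPM of Csf1r (nearest 507), 373 CPM of Ccr2 (nearest 60.1) and 376.4 CPM of Adgre1 (nearest 118). Both are T-cell-poor libraries, with Cd3e at 9.58 CPM in R replicate 3 and 46.9 CPM in RO replicate 3. In R, replicate 6 stood below the others with 153.5 CPM of Vcam1 (nearest 349), and its Cd3e, at 174 CPM, was within the range of the libraries that were not T-cell-poor.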

How the results depend on the processing

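With 3 to 5 libraries a group after the 7 are removed, only large changes of the members were detectable. In no comparison did every same-numbered pair of libraries correlate above 0.1 in its deviations (lowest -0.357, highest 0.763). In R vs RO and in RO vs NT 3 of 4 pairs did, and in R vs NT 3 of 6. Replicate 3 was T-cell-poor in R, RO and NT alike. So few pairs cannot show that the samples are unpaired, and the fit reported took them as unpaired. The replicate block gave 0 called members in rPS vs NT, where the count was 2, and changed the called genes to 625 (rPS vs NT), 9 (R vs NT), 2 (PS vs NT), 1 (rPS vs PS), 1 (rPS vs RO) and 0 (the contrast of both drug comparisons). Other counts of members called in rPS vs NT moved to 0 without the filter, 0 with the T cell covariate and 1 in the 21-library fit. DESeq2 called 3 there, Lyz2, Ccr2 and Ly6c2, beside 3440 of 17177 genes. In PS vs NT the count moved to 2 by DESeq2 and to 4 with the compared groups alone. Beside those 4 stood 2011 of 16408 genes called. The 4 included the red pulp genes Vcam1 (adjusted p = 0.049) and Slc40a1 (adjusted p = 0.0476), by edgeR. Leaving out single libraries gave 0 to 3 called members in rPS vs NT and 0 to 2 in PS vs NT.

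Called genes in rPS vs NT, 2020 in the fit reported, were 3440 by DESeq2, 542 in the 21-library fit and 1110 with the compared groups alone. In R vs NT, 50 became 17 without the filter, 289 by DESeq2, 32 without immunoglobulin, haemoglobin and mitochondrial genes, 91 with the covariate and 10 with the compared groups. In RO vs NT, 2 became 247 by DESeq2, 1 without those genes and 0 with the compared groups. In PS vs NT, 5 became 2 with DESeq2's size factors, 3 without the filter, 2007 by DESeq2, 1 without those genes, 2 with the covariate, 2 in the 21-library fit and 2011 with the compared groups. In rPS vs PS, 4 became 44 by DESeq2, 25 with the covariate and 41 in the 21-library fit. In rPS vs R, 0 became 40 by DESeq2 and 1 in the 21-library fit. In rPS vs RO, 4 became 85 by DESeq2, 17 with the covariate, 8 in the 21-library fit and 0 with the compared groups. In R vs RO, 0 became 13 by DESeq2 and 14 with the covariate, and in the contrast of both drug comparisons 3 became 10 by DESeq2. Leaving out single libraries gave 944 to 3688 (rPS vs NT), 13 to 167 (R vs NT), 2 to 99 (RO vs NT), 2 to 1142 (PS vs NT), 2 to 14 (rPS vs PS), 0 to 18 (rPS vs R), 2 to 32 (rPS vs RO) and 0 to 2 (R vs RO). The monocyte minus red pulp median of PS, 0.32, was 0.59 as a difference of medians.

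Directions reversed in rPS vs NT in the 21-library fit for Spic (0.27), Adgre1 (0.29), Csf1r (0.34), Vcam1 (0.43), Slc40a1 (0.49), C1qb (0.52) and C1qa (0.67), and with the covariate for Vcam1 (0.07), Csf1r (0.08), Adgre1 (0.10), C1qb (0.11), C1qa (0.20) and Slc40a1 (0.25). In the 21-library fit they also reversed for Spic in PS vs NT (0.04), and 8 members in R vs NT (Lyz2 to 0.00, the 6 red pulp genes to between 0.22 and 0.65), 6 in RO vs NT, 9 in rPS vs RO (among them Ccr2 at 0.19 and Lyz2 at 0.05), 2 in rPS vs R, 6 in R vs RO and 1 in the contrast of both drug comparisons. Spic in rPS vs PS reversed with the block (-0.04). Leaving out at least 1 single library reversed 1 member in rPS vs PS (Spic, -0.20 without rPS replicate 1 and -0.04 without rPS replicate 2, up to 0.49), 1 in rPS vs NT (C1qa, -0.61 to 0.03, without rPS replicate 5), 8 in rPS vs RO (Ccr2 at -1.57 to 0.16, without RO replicate 3), 5 in rPS vs R and 10 in R vs RO. With the covariate, 3 members reversed in R vs NT, 7 in RO vs NT, 3 in rPS vs R, 6 in rPS vs RO and 3 in R vs RO. The cause was not tested.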
